A study of Mus musculus with 11 samples.

Results

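Megakaryocytes are the large bone marrow and fetal liver cells that shed platelets, and they carry a small set of transcripts that few other cells make. Described here are 8 of these genes in E15.5 mouse fetal liver: *Pf4* and *Ppbp*, which encode chemokines stored in platelet alpha granules; *Itga2b* and *Itgb3*, which encode both chains of the fibrinogen receptor integrin alphaIIb beta3; *Gp1ba*, *Gp1bb* and *Gp9*, which encode chains of the GPIb-IX receptor complex; and *Vwf*, which encodes von Willebrand factor, the ligand of that complex. They were chosen by name, with earlier results of these data known. Each was found in all 11 tables by its Ensembl identifier, so that 8 of 52636 listed genes are described. All 8 passed the filter on low counts that left 17243 genes for testing.

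RNA sequencing measured 11 livers of E15.5 embryos: 3 labelled WT, 2 labelled *Tnfr1*-/-, 3 labelled *Casp8*-/- *Mlkl*-/- and 3 labelled *Casp8*-/- *Tnfr1*-/-. Caspase-8 holds back necroptosis, MLKL carries it out, and TNFR1 is a TNF receptor whose gene is *Tnfrsf1a*. The alleles are germline knockouts on a C57BL/6N background, so they are lost from every cell of the embryo and not from megakaryocytes alone, and the labels do not give litters or sex. The p values therefore measure the spread between these livers, whatever its source. In whole liver RNA, fewer megakaryocytes and less RNA per megakaryocyte cannot be told apart.

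Library totals lay between 23129212 and 35819339 counts. *Casp8* was at 27.7 to 33.9 CPM, the count of a gene scaled to a common library total, in the 5 livers with the gene. In the 6 labelled *Casp8*-/- it was at 7.82 to 13.1 CPM, except for 21.9 CPM in *Casp8*-/- *Tnfr1*-/- replicate 3. *Mlkl* was at 0.73 to 1.22 CPM in livers labelled *Mlkl*-/- against 3.68 to 24.6 CPM elsewhere. *Tnfrsf1a* was not lower in livers labelled *Tnfr1*-/- (49.8 and 50.5 CPM) than in WT (47.1 to 53.4 CPM), and reached 424.8 CPM in 1 labelled *Casp8*-/- *Tnfr1*-/- liver. Counts per gene do not show whether these reads come from an intact transcript, so *Tnfr1* genotypes stand here as labelled. That liver, *Casp8*-/- *Tnfr1*-/- replicate 3, stood apart from the other 10. It was the only one with *Xist* (3408.7 CPM, at most 0.57 CPM elsewhere), it had a normalization factor of 0.758, and its 12 striated muscle markers summed to 1525 CPM, against 20.9 to 43.4 CPM in the others. In it, 71.1% of all tested genes lay outside the range of the 10 other livers. *Casp8*-/- *Mlkl*-/- replicate 1 had the highest hepatocyte marker sum (237906.1 CPM, 53860 to 112039.7 CPM elsewhere). Results below are given with and without replicate 3 where it decides them.

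Platelet formation from megakaryocytes depends on the transcription factors GATA1, FLI1, RUNX1 and NFE2 and on the hormone thrombopoietin. On the platelet, GPIb-IX binds von Willebrand factor at a damaged vessel wall, activated integrin alphaIIb beta3 binds fibrinogen and joins platelets together, and the alpha granules release their chemokines. Von Willebrand factor is also made by endothelial cells. The other 7 genes are textbook markers of the megakaryocyte lineage, which does not mean that no other cell makes them.

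In the GENCODE annotation of GRCm38, *Pf4* (chromosome 5, 90772435 to 90773383) and *Ppbp* (chromosome 5, 90768518 to 90770063) are neighbours on the plus strand. *Itga2b* (102453297 to 102470122, minus strand), *Itgb3* (104608000 to 104670476, plus strand) and *Gp1ba* (70639122 to 70642036, plus strand) lie on chromosome 11. *Gp9* (87778072 to 87779768) and *Vwf* (125546774 to 125686679) lie on the plus strand of chromosome 6. *Gp1bb* (chromosome 16, 18620317 to 18622403, minus strand) overlaps exons of *Sept5* and of the predicted gene *Gm49601* on the same strand, and 90.6% of its 50-base stretches are also found in transcripts of these genes. *Gp1bb* counts are therefore uncertain. *Sept5*, which encodes a septin, had 142 to 289 counts in the 8 livers of the other genotypes and 440 to 550 in the 3 labelled *Casp8*-/- *Tnfr1*-/-. Shared stretches were at most 0.947% for the other 7 members.

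Because most of these genes rose and fell together from liver to liver, while 1 liver separated them, the sequences before the start sites of 3 of them are shown. *Pf4* is among those near the others' level in that liver, and *Gp1ba* and *Gp9* are those farthest below it. In that liver 71.1% of all tested genes lay outside the range of the 10 others. A part of these sequences in the separation was not tested. Each sequence is the 250 bases before the RefSeq start in GRCm38.p6, written 5′ to 3′ on the gene's strand. Capitals mark the letters AGATAA or TGATAA, which GATA factors can bind, and AGGAAG or CGGAAG, which ETS factors such as FLI1 can bind, on either strand.
Pf4, chr5:90772185-90772434, plus strand: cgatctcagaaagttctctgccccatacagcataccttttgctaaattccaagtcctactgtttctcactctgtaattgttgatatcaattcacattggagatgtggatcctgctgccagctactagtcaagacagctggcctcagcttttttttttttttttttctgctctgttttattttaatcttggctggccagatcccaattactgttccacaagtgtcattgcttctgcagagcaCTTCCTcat
Gp1ba, chr11:70638872-70639121, plus strand: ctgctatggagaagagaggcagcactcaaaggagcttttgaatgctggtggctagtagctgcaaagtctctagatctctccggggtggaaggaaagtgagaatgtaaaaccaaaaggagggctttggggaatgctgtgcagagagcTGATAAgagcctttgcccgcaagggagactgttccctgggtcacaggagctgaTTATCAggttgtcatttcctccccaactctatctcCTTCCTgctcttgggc
Gp9, chr6:87777820-87778069, plus strand: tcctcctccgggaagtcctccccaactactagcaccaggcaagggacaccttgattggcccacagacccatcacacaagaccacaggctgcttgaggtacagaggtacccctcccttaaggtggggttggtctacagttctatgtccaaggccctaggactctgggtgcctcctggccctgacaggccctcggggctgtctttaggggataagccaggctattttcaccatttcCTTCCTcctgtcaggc

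All 3 windows hold AGGAAG, on the minus strand and beginning 9 bases before the start in *Pf4* and 16 bases before it in *Gp1ba* and in *Gp9*. *Gp1ba* also holds TGATAA on each strand. Windows were found for 6 of the 8 members, all but *Itgb3* and *Vwf*. Of these 6, 5 held AGGAAG or CGGAAG, as did 39.2% of 32851 windows of the same length, and 1 held AGATAA or TGATAA, as did 16.6% of them. The exception for the first pair of motifs was *Ppbp*. A match describes letters in a window and not a bound site.

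Per length, the granule chemokines were the most abundant members. In WT livers *Ppbp* was at 100.9 ± 30.9 CPM per kb (SD, n = 3) and *Pf4* at 92.9 ± 24.0, and their ranges overlapped. They were followed by *Gp9* (26.0 ± 1.35 CPM per kb), *Itga2b* (21.8 ± 5.82) and *Itgb3* (18.9 ± 4.77). The range of *Itga2b* overlapped those of *Gp9* (24.5 to 27 CPM per kb) and *Itgb3* (13.7 to 23.2), which did not overlap each other. *Gp1ba* (7.63 ± 1.81 CPM per kb), *Vwf* (4.62 ± 1.11) and *Gp1bb* (3.15 ± 0.692) were the lowest. The place of *Gp1bb* is uncertain, because 90.6% of its 50-base stretches are shared with other genes. *Gp1ba* did not overlap *Vwf*, and *Vwf* overlapped *Gp1bb*.

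No member passed the test in any comparison of genotypes. In a joint test of the 4 genotypes by edgeR's quasi-likelihood method, 0 of 8 had a Benjamini-Hochberg adjusted p under 0.05, where 3.6% of all tested genes did, and the lowest adjusted p was 0.5, for *Vwf*. In the joint test 0 of 8 had an unadjusted p under 0.05 (15.3% of genes). DESeq2 and limma-voom also called 0 of 8 in it, and 10% and 2.14% of genes. The test of livers labelled *Casp8*-/- *Tnfr1*-/- against WT called 5.8% of all genes and 0 of 8 members, of which 1, *Vwf*, had an unadjusted p under 0.05, as did 24.6% of genes. Against livers labelled *Tnfr1*-/- it called 2.17% of genes and against *Casp8*-/- *Mlkl*-/- 1.65%, with 0 of 8 members called and 0 of 8 at an unadjusted p under 0.05 in both (16.3% and 15.3% of genes). Among the other 3 genotypes, 0.0058%, 0.0058% and 0% of genes were called, for *Casp8*-/- *Mlkl*-/- against WT, *Casp8*-/- *Mlkl*-/- against labelled *Tnfr1*-/- and labelled *Tnfr1*-/- against WT, with 0 of 8 members called or at an unadjusted p under 0.05 in each (5.63%, 2.01% and 1.08% of genes).

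DESeq2 and limma-voom called 0 of 8 members in each pairwise comparison as well. In the order above, DESeq2 called 13.7%, 7.36%, 5.46%, 0.522%, 0.261% and 0% of genes, and limma-voom 4.68%, 2.27%, 1.78%, 0.0058%, 0% and 0%. The groups of 38.4% of genes did not overlap between labelled *Casp8*-/- *Tnfr1*-/- and WT livers, and of 15.8% between labelled *Casp8*-/- *Tnfr1*-/- and *Casp8*-/- *Mlkl*-/- livers, where those of 0 of 8 members did not.

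**Figure D1:**
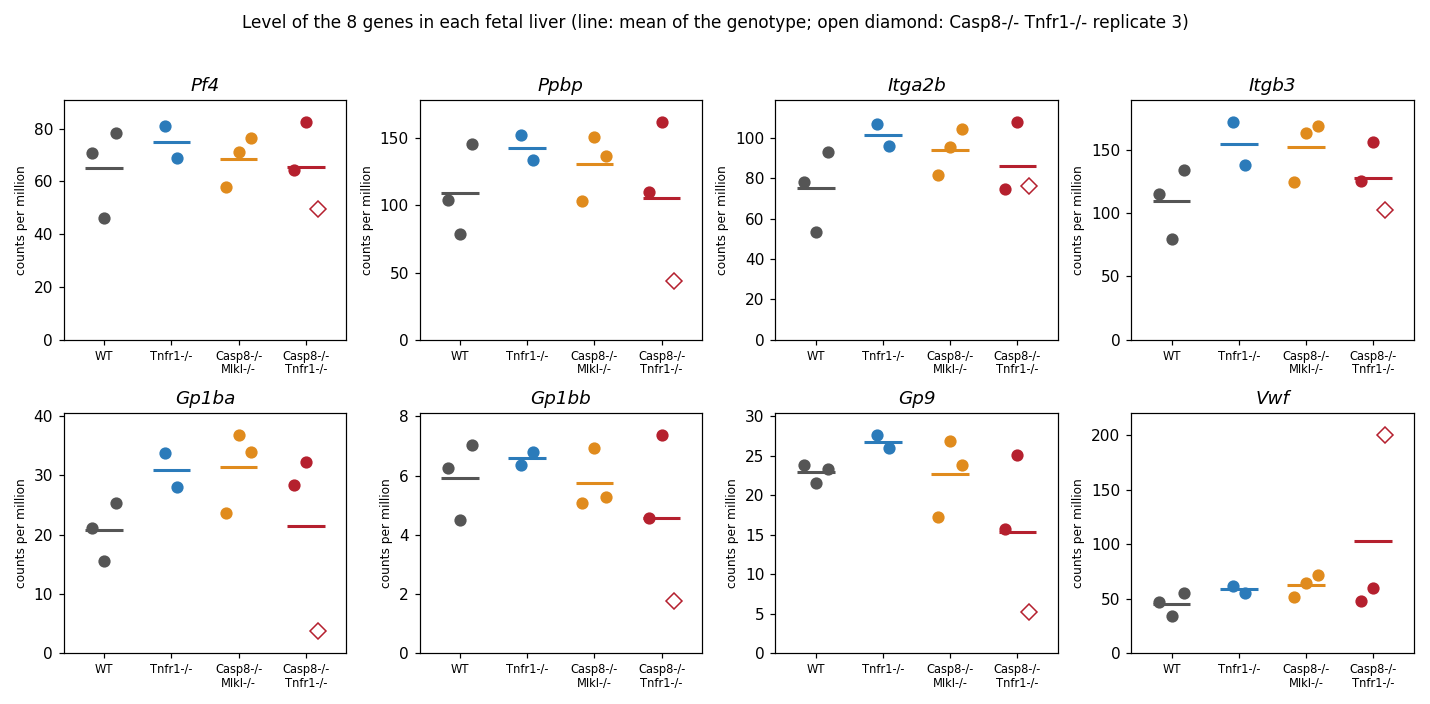
Level of each gene in each liver in CPM, on a linear axis from 0. Points are livers, lines are the means of the labelled genotypes, and the open diamond is *Casp8*-/- *Tnfr1*-/- replicate 3, which lies below all other livers for *Ppbp* (43.9 CPM), *Gp1ba* (3.76 CPM), *Gp1bb* (1.77 CPM) and *Gp9* (5.24 CPM) and above them for *Vwf* (200.2 CPM).

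The granule chemokines did not separate the genotypes. *Pf4*, platelet factor 4, was at 70.7, 46.2 and 78.3 CPM in WT livers 1 to 3, 80.9 and 68.9 CPM in those labelled *Tnfr1*-/-, 57.9, 71.0 and 76.3 CPM in *Casp8*-/- *Mlkl*-/-, and 64.2, 82.6 and 49.6 CPM in those labelled *Casp8*-/- *Tnfr1*-/-. All 4 groups overlapped, and WT replicate 2 was the lowest of the 11. The log2 fold change of the labelled *Casp8*-/- *Tnfr1*-/- livers was 0.01 against WT (95% interval -0.52 to 0.54), -0.19 against *Tnfr1*-/- (-0.78 to 0.39) and -0.06 against *Casp8*-/- *Mlkl*-/- (-0.59 to 0.46). *Ppbp*, the precursor of platelet basic protein, was at 104.1, 78.7 and 145.1 CPM in WT, 152.1 and 133.4 CPM in labelled *Tnfr1*-/-, 103.3, 150.7 and 136.8 CPM in *Casp8*-/- *Mlkl*-/-, and 109.9, 161.9 and 43.9 CPM in labelled *Casp8*-/- *Tnfr1*-/- livers. The last group holds both the highest and the lowest liver. Its log2 fold change was -0.05 against WT (-0.94 to 0.84), -0.44 against *Tnfr1*-/- (-1.42 to 0.55) and -0.31 against *Casp8*-/- *Mlkl*-/- (-1.20 to 0.58).

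Both integrin chains had nearly the same pattern. *Itga2b*, the alphaIIb chain (CD41), was at 78.4, 53.6 and 93.2 CPM in WT, 106.9 and 96 CPM in labelled *Tnfr1*-/-, 81.9, 95.7 and 104.5 CPM in *Casp8*-/- *Mlkl*-/-, and 74.5, 108.0 and 76.4 CPM in labelled *Casp8*-/- *Tnfr1*-/- livers. *Itgb3*, the beta3 chain, was at 115.0, 79.5 and 133.9 CPM in WT, 171.9 and 137.5 CPM in labelled *Tnfr1*-/-, 124.7, 162.9 and 168.4 CPM in *Casp8*-/- *Mlkl*-/-, and 125.5, 156.0 and 102.5 CPM in labelled *Casp8*-/- *Tnfr1*-/- livers. Replicate 3 lay within the range of the other genotypes for both genes, and the highest *Itga2b* level was in *Casp8*-/- *Tnfr1*-/- replicate 2, 108.0 CPM against 106.9 CPM in the next. Against WT the log2 fold change was 0.20 for *Itga2b* (-0.29 to 0.69) and 0.23 for *Itgb3* (-0.29 to 0.74). Against *Tnfr1*-/- it was -0.23 (-0.78 to 0.31) and -0.27 (-0.84 to 0.30), and against *Casp8*-/- *Mlkl*-/- it was -0.12 (-0.62 to 0.37) and -0.25 (-0.76 to 0.26). These were the narrowest intervals of the 8 genes beside those of *Pf4*.

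The chains of GPIb-IX spread more widely in the labelled *Casp8*-/- *Tnfr1*-/- livers, and replicate 3 was the lowest of all 11 for each. *Gp1ba*, the chain that binds von Willebrand factor, was at 21.1, 15.6 and 25.4 CPM in WT, 33.7 and 28.1 CPM in labelled *Tnfr1*-/-, 23.6, 36.8 and 33.9 CPM in *Casp8*-/- *Mlkl*-/-, and 28.3, 32.3 and 3.76 CPM in labelled *Casp8*-/- *Tnfr1*-/- livers. Replicates 1 and 2 of the last group were above all 3 WT livers and replicate 3 was far below them. *Gp9*, the glycoprotein IX chain, was at 23.8, 21.5 and 23.3 CPM in WT, 27.6 and 25.9 CPM in labelled *Tnfr1*-/-, 17.2, 26.9 and 23.8 CPM in *Casp8*-/- *Mlkl*-/-, and 15.7, 25.1 and 5.24 CPM in labelled *Casp8*-/- *Tnfr1*-/- livers. All 3 of the last group were below both livers labelled *Tnfr1*-/-, the only member whose groups did not overlap in that comparison, where the groups of 41.1% of all genes did not. *Gp1bb*, the GPIb beta chain, had only 31 to 238 counts per liver, or 4.49 to 7.02 CPM in WT, 6.37 and 6.80 CPM in labelled *Tnfr1*-/-, 5.07 to 6.92 CPM in *Casp8*-/- *Mlkl*-/-, and 4.58, 7.37 and 1.77 CPM in labelled *Casp8*-/- *Tnfr1*-/- livers.

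The log2 fold change of *Gp1ba* in labelled *Casp8*-/- *Tnfr1*-/- livers was 0.05 against WT (-1.23 to 1.33), -0.52 against *Tnfr1*-/- (-1.94 to 0.89) and -0.55 against *Casp8*-/- *Mlkl*-/- (-1.83 to 0.74). For *Gp1bb* it was -0.36 (-1.29 to 0.56), -0.52 (-1.54 to 0.51) and -0.32 (-1.25 to 0.60), and for *Gp9* -0.57 (-1.52 to 0.38), -0.80 (-1.84 to 0.25) and -0.56 (-1.50 to 0.39). The edgeR adjusted p of *Gp9* was 0.43 against *Tnfr1*-/-. Each member was also compared on the log2 CPM scale between the 3 labelled *Casp8*-/- *Tnfr1*-/- livers and the other 8 by exact permutation, two-sided, over 165 splits with a smallest possible p of 0.00606. *Gp9* differed by -0.88 (exact p = 0.0424, not adjusted for the 8 genes), and the other 7 members had exact p between 0.133 and 0.897. The groups overlapped for all 8 members in this comparison, whereas those of 10.8% of all genes did not, and without replicate 3 the *Gp9* difference was -0.24 (exact permutation p = 0.244). The exact p of *Gp9* was at or above 0.05 without any 1 of 8 of the 11 livers, and under 0.05 (0.0222 at the lowest) without WT replicate 2, *Casp8*-/- *Mlkl*-/- replicate 1 or *Casp8*-/- *Tnfr1*-/- replicate 2. Without the last of these *Gp1bb* also had an exact permutation p under 0.05 (difference -1.04, p = 0.0444), and its difference was -0.04 without replicate 3.

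*Vwf* was at 46.7, 33.6 and 55.3 CPM in WT, 62.0 and 55.5 CPM in labelled *Tnfr1*-/-, 51.7, 63.9 and 71.2 CPM in *Casp8*-/- *Mlkl*-/-, and 48.1, 59.3 and 200.2 CPM in labelled *Casp8*-/- *Tnfr1*-/- livers. Replicate 3 was above the other 10 and the rest of its group was among them. The log2 fold change was 1.18 against WT (0.14 to 2.22, adjusted p = 0.159), 0.80 against *Tnfr1*-/- (-0.38 to 1.98) and 0.72 against *Casp8*-/- *Mlkl*-/- (-0.32 to 1.75) in edgeR. In replicate 3 the 12 endothelial markers summed to 1021.6 CPM, against 440.4 to 676.2 CPM elsewhere, and 9 of them were above all other livers and 1 below. *Esam*, an adhesion molecule of endothelial junctions and of platelets, was at 109.3 CPM there and 17.9 to 25.8 CPM elsewhere. It was named outside the rule given below, and the 1 marker below all other livers was *Tek*, at 16.8 CPM in replicate 3. The part of endothelial cells, or of the muscle signal in the same liver, in the *Vwf* level was not tested.

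**Figure D2:**
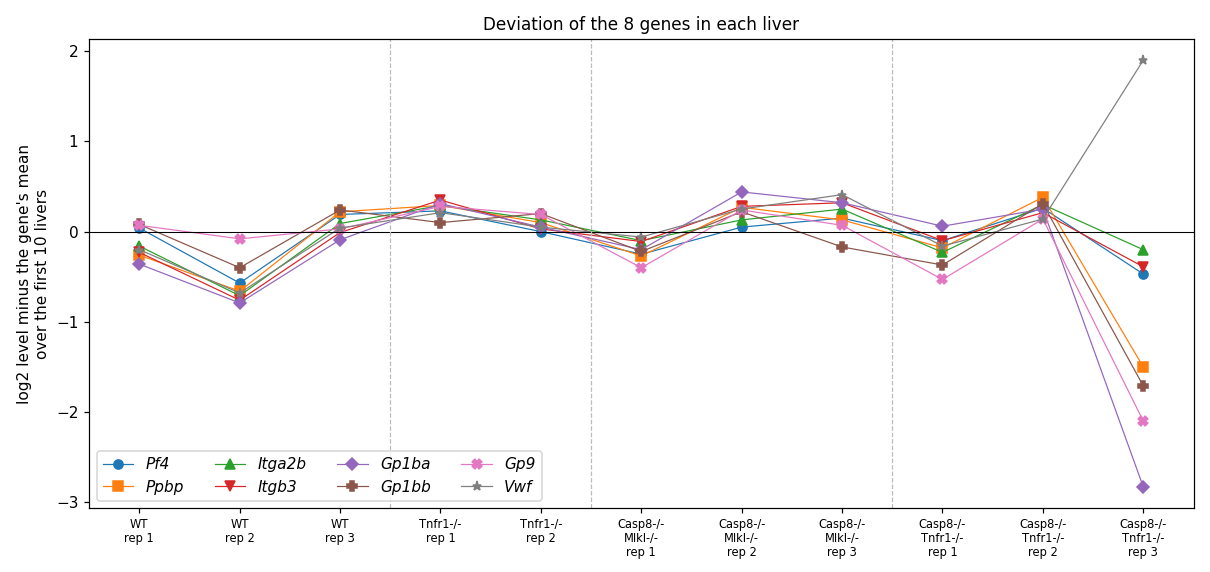
Deviation of each gene in each liver, as log2 level minus the mean of that gene over the 10 livers other than *Casp8*-/- *Tnfr1*-/- replicate 3; lines join the livers only to guide the eye. Through the first 10 livers the genes stay close together, lowest in WT replicate 2 (mean -0.58), and in replicate 3 they spread from -2.83 (*Gp1ba*) to 1.90 (*Vwf*).

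In the 10 livers other than replicate 3, the members moved together. Relative to the mean over these 10, the mean log2 deviation of the 8 genes was -0.13, -0.58 and 0.09 in WT livers 1 to 3, 0.26 and 0.09 in labelled *Tnfr1*-/-, -0.20, 0.23 and 0.19 in *Casp8*-/- *Mlkl*-/-, and -0.20 and 0.25 in the labelled *Casp8*-/- *Tnfr1*-/- livers 1 and 2. The median SD of a member over these livers was 0.306 on the log2 scale (0.266 over all tested genes) and 0.108 once the mean of the 8 in each liver was subtracted. Part of that fall is built in, because the subtracted mean holds the gene itself. No other set of genes was treated in this way. *Itga2b* kept closest to the mean of the 8 (SD 0.0746 after subtraction) and *Gp9* least (0.230). In WT replicate 2 all 8 genes were below their mean, from -0.79 for *Gp1ba* to -0.08 for *Gp9*. That liver also had the lowest sums of 4 of the 5 other lists of megakaryocyte and platelet genes, for platelet receptors 140.2 CPM against 172.5 to 337.6 CPM elsewhere. Its 8 sums of markers of other cell types, such as 480.9 CPM for endothelial and 17895.2 CPM for erythroid genes, were within the range of the other livers.

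In *Casp8*-/- *Tnfr1*-/- replicate 3 the same genes came apart. Against the mean of the 10 other livers, *Itga2b* was at 0.872-fold, *Itgb3* at 0.762-fold and *Pf4* at 0.721-fold, all inside the range of those livers. *Ppbp* was at 0.353-fold, *Gp1bb* at 0.307-fold, *Gp9* at 0.233-fold and *Gp1ba* at 0.141-fold, with 771, 31, 92 and 66 counts. *Vwf* was at 3.72-fold. So 4 members were below the range of the other livers, 1 above and 3 inside, where 71.1% of all tested genes were outside it. Both integrin chains stayed together and all 3 GPIb-IX chains were low. So was *Gp5* (2.62 CPM against 8.01 to 21.5 CPM elsewhere), which encodes the fourth glycoprotein of this receptor and was singled out after its values were seen. Low levels were not particular to this receptor. Below all other livers in replicate 3 were 7 of 13 platelet receptors and 18 of the 46 other megakaryocyte and platelet genes, which include them. Above all others were 2 of the 13 and 13 of the 46.

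**Figure D3:**
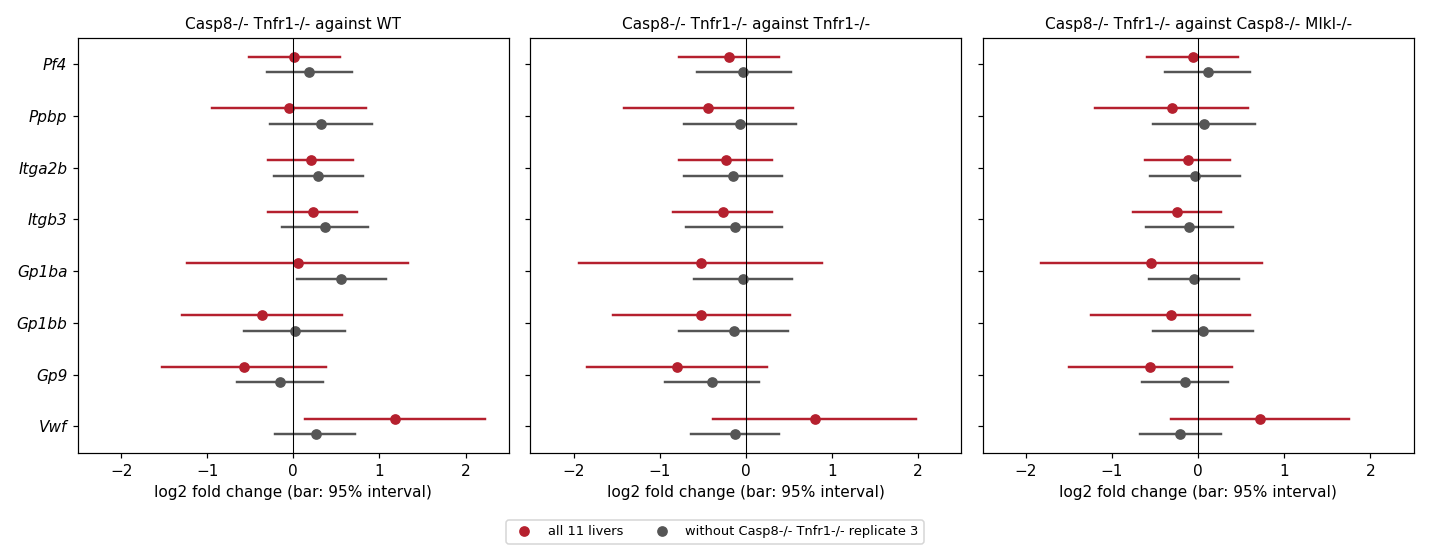
Log2 fold change of the 8 genes in labelled *Casp8*-/- *Tnfr1*-/- livers against each other genotype by edgeR, with 95% intervals, from all 11 livers (red) and without *Casp8*-/- *Tnfr1*-/- replicate 3 (grey). Without that liver *Vwf* against WT moves from 1.18 to 0.26, *Gp9* from -0.57 to -0.16 and *Gp1ba* from 0.05 to 0.55.

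Leaving out replicate 3 shortened the intervals of the GPIb-IX chains and *Vwf* and left 0 of 8 members called in each of these comparisons, where edgeR then called 9.83%, 5.19% and 3.17% of genes. Against WT the log2 fold changes lay between -0.16 (*Gp9*, -0.66 to 0.34) and 0.55 (*Gp1ba*, 0.04 to 1.07, unadjusted p = 0.0384, adjusted p = 0.178 in edgeR), with *Vwf* at 0.26 (-0.21 to 0.72). Against *Tnfr1*-/- they lay between -0.39 (*Gp9*, -0.94 to 0.15) and -0.03 (*Gp1ba* and *Pf4*), and against *Casp8*-/- *Mlkl*-/- between -0.21 (*Vwf*, -0.68 to 0.26) and 0.11 (*Pf4*). *Vwf* turned from higher to lower in these last 2 comparisons, at -0.13 and -0.21. The median over the members, against WT, *Tnfr1*-/- and *Casp8*-/- *Mlkl*-/-, was 0.03, -0.36 and -0.28 with all livers and 0.27, -0.13 and -0.04 without replicate 3, where the median of all tested genes was between -0.03 and 0.00.

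Among the other 3 genotypes, 6 of 8 members had their lowest mean in WT, all but *Gp1bb* and *Gp9*, which were lowest in *Casp8*-/- *Mlkl*-/-. All 8 had a positive log2 fold change in labelled *Tnfr1*-/- against WT, between 0.15 (*Gp1bb*) and 0.58 (*Gp1ba*), with a median of 0.38 where that of all genes was 0.00. In 5 of them (*Itga2b*, *Itgb3*, *Gp1ba*, *Gp9* and *Vwf*) both livers labelled *Tnfr1*-/- were above all 3 WT livers, where the groups of 35.7% of all genes did not overlap. *Itgb3* was higher by 0.50 (-0.07 to 1.07, unadjusted p = 0.0782 and adjusted p = 1 in edgeR). In *Casp8*-/- *Mlkl*-/- against WT the median was 0.29, with *Itgb3* at 0.47 (-0.04 to 0.99), *Gp1ba* at 0.60 (-0.68 to 1.88), *Vwf* at 0.46 (-0.57 to 1.5) and *Gp9* at -0.02 (-0.96 to 0.93), and the groups overlapped for all 8, where those of 21.8% of all genes did not. *Casp8*-/- *Mlkl*-/- against labelled *Tnfr1*-/- had a median of -0.12, and the groups again overlapped for all 8 (20.7% of all genes did not). Without *Casp8*-/- *Tnfr1*-/- replicate 3 in the fit, edgeR called 0 of 8 in each of these 3 comparisons and 0.159%, 0.0646% and 0% of genes, in the order *Casp8*-/- *Mlkl*-/- against WT, against labelled *Tnfr1*-/-, and labelled *Tnfr1*-/- against WT. At an unadjusted p under 0.05 there were then 3, 0 and 2 of 8, and 16.8%, 6.27% and 5.25% of genes. These comparisons share the WT livers with those above, and without WT replicate 2 the medians against WT were 0.20 for labelled *Tnfr1*-/- and 0.09 for *Casp8*-/- *Mlkl*-/-.

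Likeness between genes was measured as the root mean square difference of their centred log2 CPM over the 11 livers, among all 17243 tested genes. *Itgb3* was within 0.103 of *Itga2b*, the nearest gene to *Itga2b* and the second nearest to *Itgb3*, for which *Mrvi1* was nearer (0.102). *Sytl4*, which encodes a protein of granule secretion, was among the 3 nearest to both integrin chains. The nearest to *Pf4* were *Prkcq*, a protein kinase C (0.124), *Gm43681* (0.127) and *Srgap3* (0.129). *Srgap3* was also among the 3 nearest to *Itga2b* (0.126). Those nearest to *Ppbp* were *Alox12*, platelet 12-lipoxygenase, and *Gnaz*, a G protein subunit (both 0.142), then *AI504432* (0.153). For *Gp1bb* they were *1700008J07Rik* (0.148), then *Gm4864* and *Treml1*, a platelet granule receptor (both 0.169). For *Gp1ba* they were *Gm43379* (0.184), *Gm45705* (0.191) and *Slc6a4*, the serotonin transporter (0.197). No member had another as its nearest except *Itga2b*. For *Vwf* the nearest were *Prkab2*, *Timp3* and *Ripor3* (0.178 to 0.188) and for *Gp9* *Xrcc3*, *Dph2* and *Raver1* (0.144 to 0.155). The SD of *Gp1ba* was 0.923 over 11 livers and 0.375 without *Casp8*-/- *Tnfr1*-/- replicate 3, and that of *Ppbp* 0.552 and 0.331, so that liver weighs heavily in these distances.

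Part of a list of 46 other megakaryocyte and platelet genes passed the test. This list was drawn up with earlier results of these data known, so its shares cannot be read as an excess over all genes. In labelled *Casp8*-/- *Tnfr1*-/- livers 12 of 46 were called higher against WT (5.1% of all genes were), 4 of 46 against *Tnfr1*-/- (2.05%) and 3 of 46 against *Casp8*-/- *Mlkl*-/- (1.54%), with 0 called lower in each by edgeR (0.702%, 0.122% and 0.116% of all genes). With 1 liver left out at a time these counts ranged from 4 (without WT replicate 2) to 15 (without *Casp8*-/- *Tnfr1*-/- replicate 3) against WT, from 0 (without either liver labelled *Tnfr1*-/-) to 6 against *Tnfr1*-/-, and from 0 (without either liver labelled *Tnfr1*-/-, or *Casp8*-/- *Mlkl*-/- replicate 2 or 3) to 4 against *Casp8*-/- *Mlkl*-/-. The median log2 fold changes of the list were 0.26, -0.10 and -0.08. No gene of the list was called in comparisons among the other 3 genotypes by edgeR. For *Casp8*-/- *Mlkl*-/- against WT 10 of 46 had an unadjusted p under 0.05 (5.63% of all genes). The counts were 2 of 46 for *Casp8*-/- *Mlkl*-/- against labelled *Tnfr1*-/- (2.01%) and 5 of 46 for labelled *Tnfr1*-/- against WT (1.08%). DESeq2 called 3, 0 and 0 of 46 higher in these (0.458%, 0.226% and 0% of all genes), and limma-voom 0 in each.

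**Figure D4:**
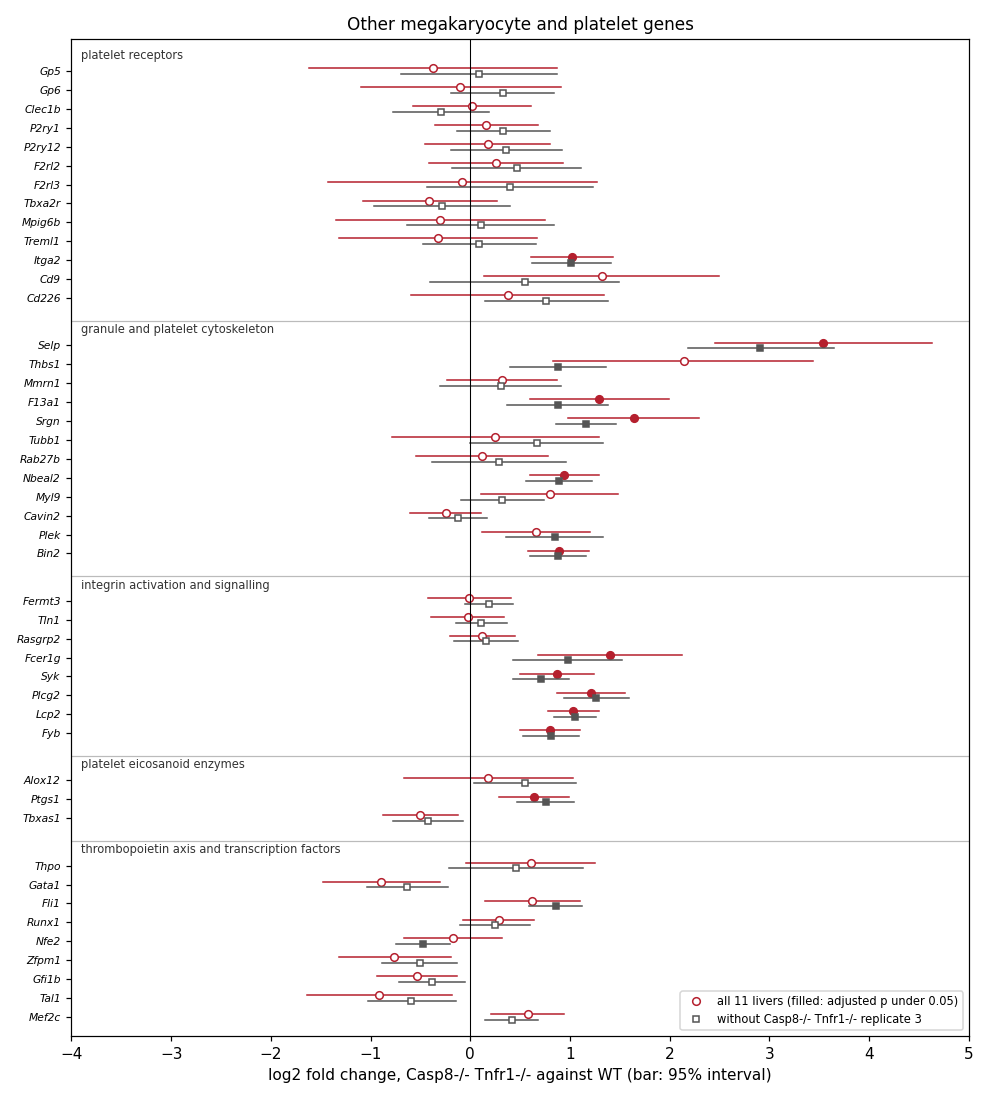
Log2 fold change of other megakaryocyte and platelet genes in labelled *Casp8*-/- *Tnfr1*-/- livers against WT, with 95% intervals, from all 11 livers (red circles) and without replicate 3 (grey squares); filled symbols have an adjusted p under 0.05 in edgeR. The called genes are in the granule (5 of 12) and integrin signalling (5 of 8) lists, with 1 of 13 receptors and 1 of 3 eicosanoid enzymes, and *Selp* is the highest at 3.54.

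The called genes belonged to 2 lists in the main. Of 12 granule and platelet cytoskeleton genes, 5 rose against WT, and of 8 genes of integrin activation and signalling, 5 rose. *Selp*, P-selectin of alpha granules and of endothelium, was at 0.713 to 1.73 CPM in WT, 1.90 and 2.35 CPM in labelled *Tnfr1*-/-, 2.31 to 3.48 CPM in *Casp8*-/- *Mlkl*-/-, and 9.49, 10.5 and 26.8 CPM in labelled *Casp8*-/- *Tnfr1*-/- livers. These 3 livers did not overlap any other genotype, and *Selp* rose by 3.54 against WT (2.46 to 4.63, adjusted p = 0.00329 in edgeR), 2.87 against *Tnfr1*-/- (adjusted p = 0.0274) and 2.51 against *Casp8*-/- *Mlkl*-/- (adjusted p = 0.0282) on the log2 scale. *Srgn*, the proteoglycan serglycin of blood cell granules, was at 49.8 to 63.3 CPM in the other 8 livers and at 103.6, 132.6 and 261.3 CPM in these 3, and rose by 1.64, 1.63 and 1.53 (adjusted p = 0.0116, 0.0399 and 0.0351 in edgeR). *F13a1*, factor XIII A, was at 25.3 to 50.6 CPM in WT and 69.9, 74.9 and 147.1 CPM in these livers, and rose by 1.29 (adjusted p = 0.0413). *Selp* against WT kept its call without any 1 liver, whereas *Srgn* lost it without WT replicate 2 or 3 (adjusted p up to 0.0703) and *F13a1* without any 1 of 7 livers (up to 0.147, without WT replicate 3). Against *Tnfr1*-/- *Selp* lost its call without either liver labelled *Tnfr1*-/- or WT replicate 3 (adjusted p up to 0.363 in edgeR), and *Srgn* without any 1 of 7 livers (up to 0.447). Against *Casp8*-/- *Mlkl*-/- these calls were lost without any 1 of 6 livers (up to 0.137) and any 1 of 8 (up to 0.138).

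The signalling genes that rose encode proteins used by many blood cells. *Plcg2*, phospholipase C gamma 2, was at 23.8 to 41.3 CPM in the other 8 livers and at 63.2, 73.1 and 61.9 CPM in the labelled *Casp8*-/- *Tnfr1*-/- livers, and rose by 1.21, 0.87 and 0.76 against WT, *Tnfr1*-/- and *Casp8*-/- *Mlkl*-/- (adjusted p = 0.00218, 0.0325 and 0.043 in edgeR). *Lcp2*, the adaptor SLP-76, was at 23.9 to 39.0 CPM and at 51.2, 53.4 and 51.2 CPM, and rose by 1.03 and 0.82 against WT and *Tnfr1*-/-; against *Casp8*-/- *Mlkl*-/- its difference was 0.47 (adjusted p = 0.0789). *Fcer1g*, the Fc receptor gamma chain that pairs with glycoprotein VI, rose by 1.40 against WT (adjusted p = 0.0348), from 34.3 to 38.8 CPM to 66.9, 73.7 and 143.1 CPM. The calls of *Plcg2* and *Lcp2* against WT held without any 1 liver, and that of *Fcer1g* was lost without any 1 WT liver or liver labelled *Tnfr1*-/- (adjusted p = 0.0637 to 0.142). Against *Tnfr1*-/- the call of *Lcp2* was lost without either liver labelled *Tnfr1*-/- (adjusted p up to 0.314 in edgeR) and that of *Plcg2* without any 1 of 6 livers (up to 0.512). The call of *Plcg2* against *Casp8*-/- *Mlkl*-/- was lost without any 1 of 8 livers (up to 0.183), whereas *Lcp2* was called there without *Casp8*-/- *Tnfr1*-/- replicate 3 (adjusted p = 0.0246). In the same 3 livers the 12 markers of neutrophils and their precursors summed to 5379, 6642.3 and 14967.2 CPM, against 1158.8 to 3474.2 CPM in the other 8, with 5 of 12 called higher against WT. The markers were not uniformly high in replicate 3, where 6 of the 12 were above all other livers and 4 below them. The part of neutrophils and their precursors in the rise of the signalling genes, or of the granule genes above, was not tested.

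Most of the receptors and enzymes were not called. Of 13 platelet receptors, 1 was called against WT, *Itga2* (1.02), the collagen receptor alpha2 chain, named after its values were seen. *Treml1* was at 13 to 24.3 CPM in the 10 other livers and 4.84 CPM in replicate 3, with a log2 difference from WT of -0.32 (-1.32 to 0.67). *Alox12* was at 23.0 to 52.0 CPM and 15.7 CPM, with a difference of 0.18 (-0.66 to 1.03). *Cd9*, a tetraspanin, was at 53.2 to 86.5 CPM in 9 livers but 171.7 CPM in *Casp8*-/- *Mlkl*-/- replicate 1 and 258.7 CPM in replicate 3, with a difference of 1.32 (0.14 to 2.5, adjusted p = 0.163). *Thbs1*, thrombospondin 1 of alpha granules, reached 1883.6 CPM in replicate 3 and 147.6 to 400.0 CPM elsewhere; its difference of 2.14 missed the threshold (adjusted p = 0.0637). It was called without any 1 of the 3 labelled *Casp8*-/- *Tnfr1*-/- livers, at 0.88 without replicate 3 (adjusted p = 0.0313), 2.53 without replicate 1 (0.0232) and 2.49 without replicate 2 (0.0342) in edgeR. *Fermt3*, kindlin-3, which activates the integrin, was at 183.7 to 242.4 CPM in the 10 livers and 142.3 CPM in replicate 3, with a difference of -0.01 (-0.42 to 0.41). *Ptgs1*, cyclooxygenase 1, rose by 0.64 against WT (adjusted p = 0.0413), a call lost without any 1 of 9 livers (adjusted p up to 0.172, without WT replicate 3).

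Of 10 genes of the thrombopoietin axis and transcription factors, 0 were called in any comparison by edgeR, and 6 of 10 had an unadjusted p under 0.05 against WT, 2 with a positive and 4 with a negative log2 fold change, where 24.6% of all genes had one in either direction. *Nfe2*, a factor of both platelet formation and erythroid cells, was at 373.2 to 404.8 CPM in WT and 289.9, 272.6 and 485.0 CPM in the labelled *Casp8*-/- *Tnfr1*-/- livers, a difference of -0.17 (-0.66 to 0.32) that became -0.47 and was called lower without replicate 3 (adjusted p = 0.0395). *Fli1*, a factor of megakaryocytes and endothelium named here after its values were seen, differed by 0.62 (0.15 to 1.1, adjusted p = 0.115 in edgeR), and without replicate 3 it was called higher against WT (0.86, adjusted p = 0.00231) and against *Tnfr1*-/- (0.66, adjusted p = 0.0195). *Tal1*, like *Nfe2* a factor of erythroid cells too, was at 661.0 to 668.0 CPM in WT. In the labelled *Casp8*-/- *Tnfr1*-/- livers it was at 451.8, 428.7 and 178.9 CPM, a difference of -0.91 (-1.64 to -0.18, adjusted p = 0.128 in edgeR). Without replicate 3 the list of 46 had 15, 6 and 4 genes called higher in the 3 comparisons (7.28%, 4.46% and 2.83% of all genes) and 1, 0 and 0 called lower (2.55%, 0.728% and 0.335%). It then had 2 called higher in *Casp8*-/- *Mlkl*-/- against WT (0.141% of genes).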

How the data were processed

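RNA sequencing of 11 E15.5 livers was described by 1 table per liver. Per the file headers, the deposited tables hold read counts on the exons of each Ensembl gene, a gene width in bases, and RPKM values that the authors computed from counts and width. The submitters' processing notes name the aligner GSNAP and GRCm38/mm10; the counter, the annotation release and the use of strand are not given in the sources used here, and labels and methods name different library kits. RPKM values were not used. Samples were grouped by their labels.

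Counts were analysed in R 4.3.3 with edgeR 4.0.16 (TMM factors, a minimum count of 10, quasi-likelihood tests on 1 model of 4 genotypes with 7 residual degrees of freedom, Benjamini-Hochberg adjustment over 17243 genes, threshold 0.05), and checked on simulated counts. CPM values use TMM-scaled totals, log2 CPM a prior count of 2, and CPM per kb the deposited width. Single members were compared by exact permutation over livers. Alternatives were DESeq2 1.42.0 (test and size factors), limma 3.58.1 voom, other count filters, only the compared genotypes, the replicate number as a block, and each liver left out. Library totals of 23129212 to 35819339 counts limit the precision of low genes. Same-numbered livers of different genotypes did not vary together: 4 of 15 pairs had a correlation of deviations over 0.1 (-0.297 to 0.275), so the block is an alternative only.

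Named were all 8 members; per comparison, up to 4 other megakaryocyte genes called in each direction with the largest change, or, where fewer were called, those of each list with the highest CPM per kb; and the 3 nearest genes to each member. Of the list of 46 other genes, 1 is not reported here by name. The members and lists were chosen with earlier results of these data known. Promoter windows come from RefSeq, gene positions from GENCODE.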

Additional observations from a re-analysis of the deposited data

How the results depend on the processing

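With 1 liver left out at a time, edgeR called 0 to 0 of the 8 members in every comparison, and the same count came from each of the other alternatives chosen beforehand. Alternatives chosen after seeing the data called some. With limma-voom and quality weights per library, 1 member was called in labelled *Casp8*-/- *Tnfr1*-/- against WT (*Gp1ba*, 0.59), 1 against *Tnfr1*-/- (*Gp9*, -0.51), 3 in *Casp8*-/- *Mlkl*-/- against WT (*Itgb3*, *Gp1ba* and *Vwf*) and 4 in the joint test. This fit called 30.6%, 25.1%, 6.04% and 31.8% of all genes in these. Without both *Casp8*-/- *Tnfr1*-/- replicate 3 and *Casp8*-/- *Mlkl*-/- replicate 1, 1 was called against WT (*Gp1ba*, 0.56), 3 in *Casp8*-/- *Mlkl*-/- against WT (the same genes) and 3 in the joint test, where 31.3%, 6.4% and 30.8% of all genes were called. The cause was not tested.

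Log2 differences near 0 changed sign. In labelled *Casp8*-/- *Tnfr1*-/- against WT, *Pf4* was 0 without a count filter, *Gp1ba* -0.28 with limma-voom and -0.11 with the replicate block, and *Fermt3* 0.01 with a mean of at least 10 counts and 0 with only 2 genotypes. With quality weights and without both livers, in turn, *Ppbp* was 0.36 and 0.33, *Treml1* 0.1 and 0.1 and *Fermt3* 0.18 and 0.2 against WT, *Vwf* -0.14 and -0.12 against *Tnfr1*-/-, then -0.36 and -0.32 against *Casp8*-/- *Mlkl*-/-, and in *Casp8*-/- *Mlkl*-/- against WT *Gp1bb* was 0.04 and 0.05 and *Gp9* 0.11 and 0.15. Without both livers *Gp1bb* was 0.02 against WT and *Pf4* 0.01 against *Casp8*-/- *Mlkl*-/-. With the replicate block *Gp1bb* in labelled *Tnfr1*-/- against WT was -0.02.

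With 1 liver left out, ranges that crossed 0 against WT were -0.18 to 0.18 (*Pf4*), -0.49 to 0.32 (*Ppbp*), -0.34 to 0.55 (*Gp1ba*), -0.87 to 0.02 (*Gp1bb*), -0.77 to 0.09 (*Treml1*), -0.17 to 0.19 (*Fermt3*) and -0.13 to 0.55 (*Alox12*). *Vwf* ranged from -0.13 to 1.14 in the comparison with *Tnfr1*-/-. In that with *Casp8*-/- *Mlkl*-/- the ranges were -0.25 to 0.11 (*Pf4*), -0.74 to 0.07 (*Ppbp*), -0.82 to 0.05 (*Gp1bb*) and -0.21 to 1.07 (*Vwf*). In *Casp8*-/- *Mlkl*-/- against WT they were -0.13 to 0.22 (*Pf4*), -0.21 to 0.09 (*Gp1bb*) and -0.16 to 0.15 (*Gp9*), and in labelled *Tnfr1*-/- against WT -0.01 to 0.3 (*Gp1bb*). Differences from the other 8 livers ranged from -0.27 to 0.1 (*Pf4*), -0.82 to 0.12 (*Ppbp*), -0.21 to 0.06 (*Itga2b*), -0.23 to 0.07 (*Itgb3*), -1.34 to 0.2 (*Gp1ba*) and -0.01 to 1.02 (*Vwf*).

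Of the 46 other genes, 12, 4 and 3 were called higher in labelled *Casp8*-/- *Tnfr1*-/- livers against WT, *Tnfr1*-/- and *Casp8*-/- *Mlkl*-/-. The counts were 6, 0 and 0 with only the 2 genotypes compared, 24, 15 and 12 with quality weights and 22, 13 and 12 without both livers. All genes called higher were 2.8%, 0.316% and 0.0612% with only the 2 genotypes, 17%, 14.6% and 11% with quality weights and 17.8%, 13.9% and 12% without both livers. In the last 2 of these comparisons they were 7 and 7 with DESeq2 (6.42% and 4.55% of all genes) and 1 and 1 with the replicate block (1.06% and 0.754%). In *Casp8*-/- *Mlkl*-/- against WT 3 were called with DESeq2 (0.458% of all genes), 18 with quality weights (3.2%), 16 without both livers (3.23%) and 0 to 2 with 1 liver left out. In labelled *Tnfr1*-/- against WT the counts were 7, 2 and 3 with quality weights, without both livers and with only the 2 genotypes (0.87%, 0.348% and 0.85% of all genes), and in *Casp8*-/- *Mlkl*-/- against *Tnfr1*-/- 2 and 2 with the first pair of these (1.37% and 1.19%). Low depth limits *Gp1bb* most, with 31 counts in *Casp8*-/- *Tnfr1*-/- replicate 3.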
